A study of Mus musculus with 12 samples.

Results

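Dual-specificity phosphatases and the Sprouty and Spred proteins are the inducible brakes of MAP kinase signalling. The 6 genes described here are Dusp1, Dusp6, Spry1, Spry2, Spry4 and Spred1, and every probe set that the array's annotation assigns to one of these symbols was taken, which gave 10 of 22626 probe sets. The genes are 6 of 12393 named on the array. Total RNA from lungs of CD-1/ICR mice was read on 12 Affymetrix 430A mouse arrays, which form 4 groups of 3. Wild-type mice (Nrf2+/+) and mice lacking Nrf2 (Nrf2-/-, here knockout) either breathed on their own for 2 h (spontaneous ventilation, SpV, the controls) or were ventilated mechanically for 2 h at a high tidal volume of 30 ml/kg (HVT). Nrf2, encoded by Nfe2l2, is a transcription factor that raises the expression of antioxidant enzymes. The deleted part of the gene, the cell types in which it was lost, and the age and sex of the mice are not given in the sources used here. Wild-type SpV array 1 is labelled whole lung and the other 11 arrays left lung lobe. RNA of whole tissue was measured, so fewer cells of a type and less RNA per cell cannot be told apart.

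As background, growth factors and cell stretch activate the small GTPase Ras and then the kinases Raf, MEK and ERK, while stress and cytokines also activate the related kinases JNK and p38. ERK and its relatives switch on immediate-early genes, and among the genes they switch on are their own inhibitors. Dusp1 encodes a nuclear phosphatase that removes the activating phosphates from p38, JNK and ERK, and Dusp6 a cytoplasmic one with a strong preference for ERK. Sprouty proteins (Spry1, Spry2, Spry4) and the related Spred1 act further upstream, on the way from receptor tyrosine kinases to Raf. In the lung, Sprouty proteins are best known for limiting fibroblast growth factor signals during airway branching, and Dusp1 for ending p38 signalling in inflammation.

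The sequence just upstream of the start was taken for 5 of the 6 genes from the RefSeq promoter table of build GRCm38.p6: Dusp1, Dusp6, Spry1, Spry2 and Spred1. Spry4 was left out of the search. All 5 windows of 250 bases were richer in G and C than the median window of the table, from 56.4% for Dusp6 to 70.8% for Spred1 against 52.4%. Each window was searched on both strands for 7 motifs of factors that act in these pathways. They were the cyclic AMP response element TGACGTCA and its core TGACG, the CArG box of serum response factor, the AP-1 site TGANTCA, the ETS site CCGGAAG, the core TGACNNNGC of the antioxidant response element and the E-box CACGTG. The Dusp1 window held matches and the other 4 windows held none of the 7. A selection is printed here, 5′ to 3′ on the strand of the gene and ending at the base before the start: Dusp1 because it holds the matches, and Dusp6 and Spry2 as members of each family without one. Capitals mark every base inside a match.
Dusp1, chr17:26508473-26508722, minus strand: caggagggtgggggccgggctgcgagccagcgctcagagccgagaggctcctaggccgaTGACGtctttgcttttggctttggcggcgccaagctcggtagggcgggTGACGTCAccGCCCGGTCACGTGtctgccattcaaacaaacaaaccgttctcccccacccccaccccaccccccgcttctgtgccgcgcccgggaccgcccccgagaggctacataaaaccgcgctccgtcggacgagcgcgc
Dusp6, chr10:99262981-99263230, plus strand: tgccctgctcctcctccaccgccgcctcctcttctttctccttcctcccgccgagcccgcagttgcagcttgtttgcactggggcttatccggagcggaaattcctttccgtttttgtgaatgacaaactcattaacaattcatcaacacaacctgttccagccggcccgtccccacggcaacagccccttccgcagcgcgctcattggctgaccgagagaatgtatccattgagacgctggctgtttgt
Spry2, chr14:105896820-105897069, minus strand: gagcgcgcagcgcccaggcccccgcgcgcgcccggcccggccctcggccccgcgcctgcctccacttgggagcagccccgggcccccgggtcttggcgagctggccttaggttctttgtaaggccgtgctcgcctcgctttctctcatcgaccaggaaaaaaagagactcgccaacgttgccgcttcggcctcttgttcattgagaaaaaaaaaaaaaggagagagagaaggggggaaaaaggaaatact
In the Dusp1 window a full TGACGTCA lay 143 to 136 bases before the start, and 1.55% of the 32851 windows in the table held one. The core TGACG, present in 17.8% of all windows, occurred at 191 to 187 bases and 2 more times inside the full element. A match to the antioxidant core on the reverse strand, at 133 to 125 bases, overlapped an E-box at 126 to 121 bases. These 2 motifs were present in 10.2% and 6.02% of all windows. The AP-1, ETS and CArG motifs, which none of the 5 windows held, were found in 6.75%, 6.91% and 1.47% of windows. A match is a run of letters and says nothing of whether a factor was bound in these lungs.

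The arrays were of unequal quality, and 1 of them bears on every result below. The trimmed mean signal before normalization was 279 to 439 on the 6 wild-type arrays, 73.9, 470 and 446 on knockout SpV arrays 1, 2 and 3, and 182 to 247 on the 3 knockout HVT arrays. The ratio of the 3′ to the 5′ actin control, a sign of RNA integrity, was 8.76 on knockout SpV array 1 and 1.39 to 3.11 on the other 11. That array had a mean correlation of 0.874 with the others, which had 0.923 to 0.944. Results are therefore given with all 12 arrays and again without it. Nfe2l2 followed the labels, with normalized signals of 2143 to 3294 on wild-type arrays and 36.2 to 61.2 on knockout arrays (log2 difference -5.55 ± 0.20, adjusted p = 1.39e-08 in SpV). Summed markers of endothelium (8 of 8 measured), alveolar type 1 cells (6 of 6) and type 2 cells (5 of 6) were all well above 0 on every array, and none of these markers was at 0. Heart markers (6 of 6 measured) were present too, with sums of 21599 to 33290 on wild-type arrays and 35696 to 52481 on knockout arrays.

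Of the 10 probe sets, 8 reached a scaled signal of 100 on at least 3 arrays and were kept, and every gene kept at least 1. Where a gene had several, the brightest represented it in the fit. The values below are quantile-normalized signals in arbitrary intensity units, and differences are on the scale of log2(signal + 16) ± SE, fitted with limma to groups of 3 arrays (n = 3). Adjusted p-values are Benjamini-Hochberg values over all 9333 genes tested. Levels of different genes cannot be compared, because each probe set has its own sensitivity.

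Ventilation of wild-type mice came with higher signals of Dusp1, Spry2 and Spry4 on every array. In the main fit to all 12 arrays none of the 6 genes passed the test. Dusp1, the nuclear phosphatase, had signals of 3909, 4489 and 4121 in wild-type SpV and of 9724, 9495 and 7815 in wild-type HVT. The lowest HVT array was thus well above the highest SpV array. The means were 4173 ± 294 and 9011 ± 1042 (SD, n = 3), a log2 difference of 1.10 ± 0.32 with a 95% interval of 0.41 to 1.80 (adjusted p = 0.338). Spry4, an inhibitor between receptor and Raf, had 12.8, 18.0 and 7.9 in SpV and 201, 117 and 148 in HVT. Its SpV signals lay at the bottom of the range of the arrays, where a low signal is a poor measure of how little RNA there was, and its HVT signals were clear of them. Spry4 passed the filter on low signals through 5 arrays, 3 of them wild-type HVT and 2 knockout, and without wild-type HVT it would not have been tested. A gene kept in this way had to differ, so the fitted values of Spry4 are given here and below as descriptions and not as support for a difference. The fitted log2 difference was 2.55 (adjusted p = 0.159) with a pseudocount of 16, and 3.52 and 1.495 with pseudocounts of 1 and 64. Spry2, the family member best known from airway branching, had 698, 751 and 714 in SpV and 1248, 850 and 1094 in HVT. These groups did not overlap either, although HVT array 2 came within about 100 units of the SpV arrays, and the log2 difference was 0.54 ± 0.18 (adjusted p = 0.439).

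The other 3 genes overlapped between the wild-type groups. Dusp6, the ERK phosphatase, had 1528, 1840 and 2068 in SpV and 1972, 2064 and 2376 in HVT. Its log2 difference was 0.24 ± 0.43 (adjusted p = 0.957). Spry1 differed by 0.28 ± 0.28 on the log2 scale (adjusted p = 0.901), from a mean of 1554 ± 146 to 1896 ± 221 (SD, n = 3). Spred1, which keeps Ras from activating Raf, had signals of 663 to 992 in SpV and 789 to 862 in HVT and differed by -0.04 ± 0.27 (adjusted p = 0.994). In wild-type mice 0.075% of all genes were called, and 7.92% had HVT arrays wholly above the SpV arrays, as Dusp1, Spry2 and Spry4 did. A positive difference was seen for 5 of the 6 members and for 44.2% of all genes, and the median difference was 0.41 for the members and -0.04 for all genes. At an unadjusted p under 0.05 stood 3 of the 6 members and 7.98% of all genes. These counts include Spry4, which its filter had already placed among the higher genes.

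Knockout SpV array 1 belongs to neither wild-type group but adds to the pooled spread, and without it Dusp1 passed the test. It rose by 1.06 ± 0.16 on the log2 scale (adjusted p = 0.0157), near the value from all 12 arrays, with an SE of 0.16 in place of 0.32. The fit also put Spry4 past the threshold (2.56, adjusted p = 0.00953), a call that is no independent test for the reason given above. Spry2 differed by 0.54 ± 0.18, with an SE nearly unaltered, and was not called (adjusted p = 0.212). Among all genes, 0.49% were then called in this comparison and 0.424% were called higher. Over 24 alternative settings the adjusted p of Dusp1 ran from 0.0157 to 1, and its difference was positive in each of them. With all 12 arrays and the actin ratio as a covariate, Dusp1 (0.86) was called as well, as 0.761% of all genes were. Spry4 passed the threshold in that fit too and in the one on unscaled signals, where 0.0107% of all genes did. The actin ratio itself did not overlap between the wild-type groups, with 2.08 to 2.51 in SpV and 1.53 to 1.99 in HVT. The same comparison held changes in cell markers: the summed signal of the 2 measured red cell markers was 2720 to 3182 in SpV and 926 to 1287 in HVT, and that of 5 fibroblast markers 21504 to 24968 and 12977 to 19594. Endothelial marker sums were 16962 to 22387 in SpV and 12451 to 19685 in HVT. The part of these cell types in the differences of the 6 genes was not tested.

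**Figure D1:**
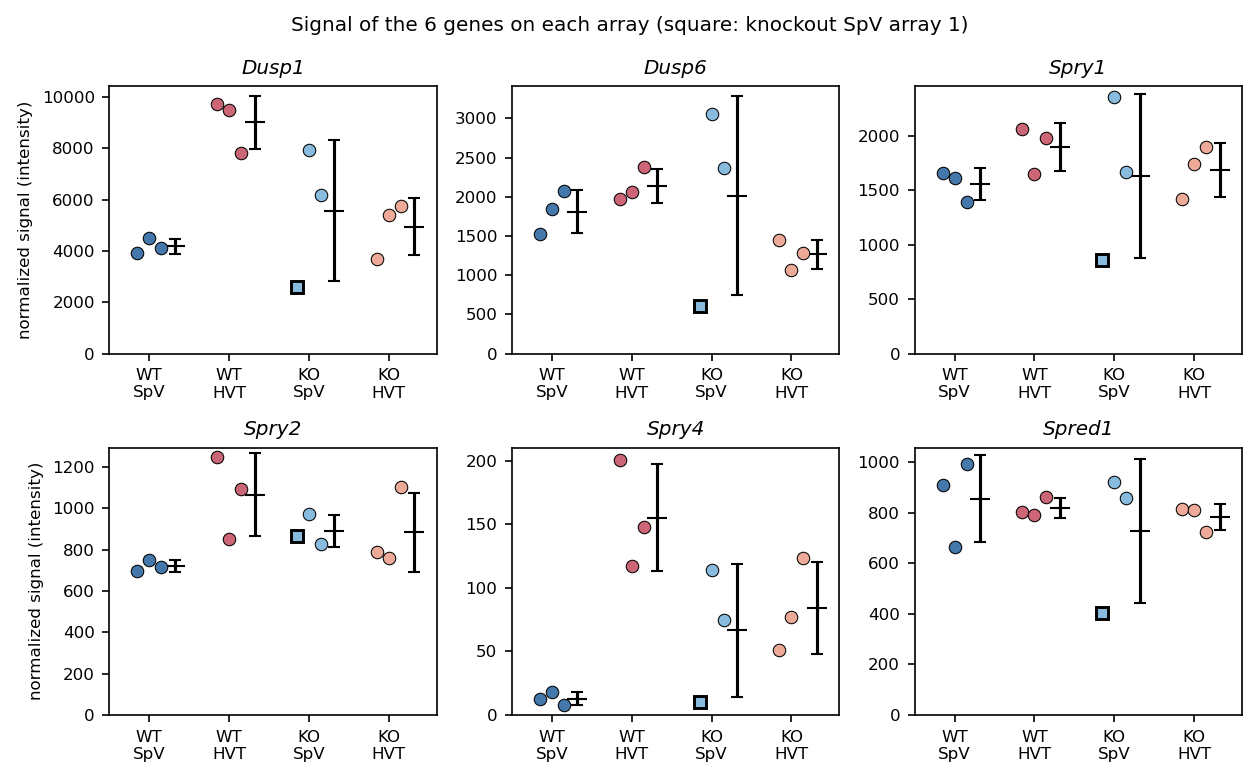
Quantile-normalized signal of the 6 genes (vertical axes, arbitrary intensity units, linear and starting at 0) on each of the 12 arrays (points) of the wild-type (WT) and knockout (KO) groups, with the group mean ± SD beside them and knockout SpV array 1 as a square. In the panel of Dusp1 the 3 wild-type HVT arrays (7815 to 9724) lie above the 3 wild-type SpV arrays (3909 to 4489), and knockout SpV array 1 is the lowest array for Dusp1, Dusp6, Spry1 and Spred1.

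In knockout mice the 2 breathing groups overlapped for all 6 genes, and with all 12 arrays none was called. Dusp1 had 2584, 7939 and 6194 in knockout SpV and 3665, 5401 and 5734 in knockout HVT, a log2 difference of -0.05 ± 0.32 (adjusted p = 0.972). Dusp6 had 609, 3063 and 2374 in SpV and 1448, 1071 and 1279 in HVT, a difference of -0.39 ± 0.43 (adjusted p = 0.788). For both phosphatases SpV arrays 2 and 3 were above all 3 HVT arrays, while SpV array 1 was below them. Spry4 showed 10.6, 114 and 74.9 in SpV and 51.4, 77.4 and 123 in HVT, with a difference of 0.49 ± 0.52 (adjusted p = 0.777). Spry1 had 861, 2359 and 1670 in SpV and 1414, 1739 and 1899 in HVT (0.15 ± 0.28, adjusted p = 0.886). Spry2 alone among the 6 did not have a low value on SpV array 1, with 865, 973 and 826 in SpV and 786, 758 and 1103 in HVT (-0.03 ± 0.18, adjusted p = 0.977). Spred1 had 401, 922 and 856 in SpV against 724 to 813 in HVT, a difference of 0.19 ± 0.27 (adjusted p = 0.834). Of all genes 0% were called, 10.7% had an unadjusted p under 0.05, and 14.4% had groups that did not overlap, against 0 of the 6 members for each. The difference was positive for 3 of the 6 members and for 50.2% of all genes.

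The low array set the spread of these values. Set against the mean of the other 2 arrays of its group, knockout SpV array 1 stood at -2.12 on the log2 scale for Dusp6, -2.04 for Spry4, -1.43 for Dusp1, -1.19 for Spry1 and -1.12 for Spred1, and at -0.05 for Spry2. Without it, Dusp6 fell in ventilated knockout lungs by 1.09 on the log2 scale (SE 0.18, adjusted p = 0.00708, range over 24 alternatives 0.00708 to 0.999). Dusp1 differed by -0.51 ± 0.18 (adjusted p = 0.107) and was not called. The values for Spry1, Spry2, Spry4 and Spred1 were -0.25, -0.04, -0.19 and -0.18, none of them called. Of all genes, 6.54% were then called in this comparison, and 4.29% of all genes were called lower in HVT as Dusp6 was. The 2 remaining knockout SpV arrays were the brightest of the 12 before normalization, at 470 and 446, against 182 to 247 for knockout HVT, and had actin ratios of 1.39 and 1.52 against 2.21 to 3.11. With all 12 arrays and the actin ratio as a covariate, the Dusp6 difference was -0.35 (adjusted p = 0.371). Marker sums of the 2 arrays were apart from knockout HVT as well. The sum of 5 neutrophil markers was 20485 and 10301 on them and 1903 to 2684 in knockout HVT, and without array 1 all 5 were called lower. Endothelial sums were 15366 and 13550 against 7456 to 9057, with 4 of 8 markers called lower, and alveolar type 1 sums 29953 and 28225 against 11768 to 17420, with 5 of 6 called lower. All 3 measured macrophage markers were called lower too. On array 1 the neutrophil, endothelial and type 1 sums were 4916, 8259 and 14159. The part of brightness and cell makeup in the fall of Dusp6 was not tested.

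**Figure D2:**
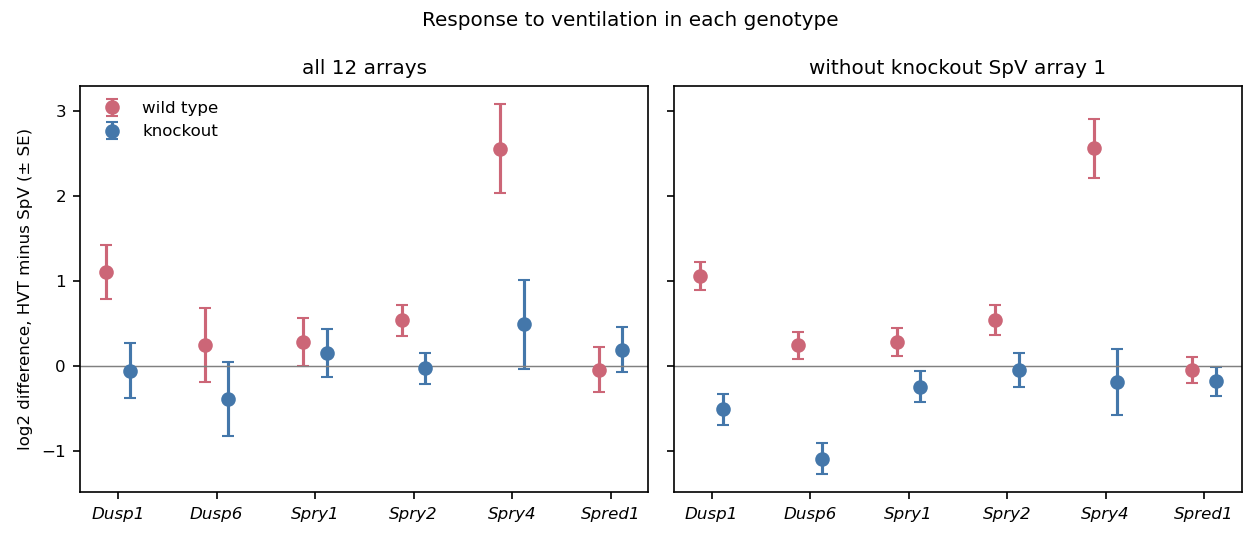
Log2 difference between HVT and SpV (vertical axis) for the 6 genes in wild-type and knockout lungs, with bars of ± SE from limma, from all 12 arrays (left) and without knockout SpV array 1 (right). The wild-type differences of Dusp1 (1.10 and 1.06) and Spry4 (2.55 and 2.56) keep their size and gain shorter bars, while the knockout difference of Dusp6 moves from -0.39 to -1.09.

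Whether ventilation acted differently in the 2 genotypes was tested directly as the interaction, the knockout difference minus the wild-type difference. It was negative for 5 of the 6 genes. With all 12 arrays it was -1.16 ± 0.45 for Dusp1, -2.06 ± 0.74 for Spry4 and -0.56 ± 0.26 for Spry2. The adjusted p was 0.9997 for each of the 6 genes, and none was called. Dusp6 had -0.63 ± 0.61, Spry1 -0.13 ± 0.40 and Spred1 0.24 ± 0.37. Of all genes 0% were called and 53% had a positive interaction, as 1 of the 6 members did. The unadjusted p was under 0.05 for 2 members, Dusp1 and Spry4, and for 4.83% of all genes. The counts of negative interactions and of unadjusted p include Spry4. It passed the filter through its high wild-type HVT signals, so its values are descriptions only.

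With knockout SpV array 1 left out, the interaction passed the test for Dusp1 and Dusp6, both negative, when 0.892% of all genes were called and 0.773% were called negative. Dusp1 had -1.57 ± 0.24 (adjusted p = 0.0153) and Dusp6 -1.33 ± 0.24 (adjusted p = 0.0306). Spry4 was past the threshold as well (-2.75, adjusted p = 0.0344), but its wild-type SpV signals of 7.9 to 18.0 and its filter make that value a description only. For Dusp1 this combined a rise of 1.06 in wild-type lungs with a difference of -0.51 in knockout lungs. For Dusp6 it combined an uncalled 0.24 with the fall of 1.09. Spry2 (-0.58 ± 0.27, adjusted p = 0.334), Spry1 (-0.53 ± 0.25, adjusted p = 0.343) and Spred1 (-0.14 ± 0.23, adjusted p = 0.829) were not called. Leaving out any one of the other 11 arrays gave no call for any member. Over all alternatives the adjusted p of the interaction ran from 0.0153 to 1 for Dusp1 and from 0.0306 to 1 for Dusp6. The sign of the interaction was negative for both genes and Spry2 in every alternative. With the actin ratio as a covariate on all 12 arrays it was -0.88 for Dusp1 (adjusted p = 0.289) and -0.24 for Dusp6 (adjusted p = 0.820). These calls rest on 2 knockout SpV arrays, and the brightness, actin ratio and marker differences given above for the knockout groups enter the interaction too.

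**Figure D3:**
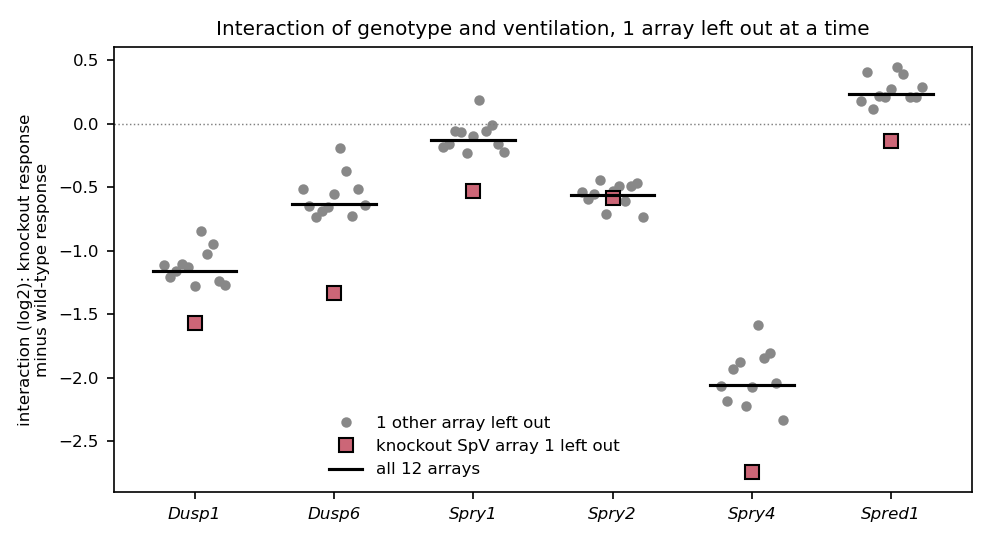
Interaction (knockout response minus wild-type response to ventilation, log2, vertical axis) of the 6 genes with all 12 arrays (lines), without knockout SpV array 1 (squares) and with each other array left out in turn (grey points). For Dusp1 the value runs from -1.57 to -0.84 and for Spry4 from -2.75 to -1.59, and the lowest value of each is the one without knockout SpV array 1.

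Under spontaneous breathing no member was called between knockout and wild-type lungs on all arrays, where 0.332% of all genes were. At an unadjusted p under 0.05 stood 1 of the 6, Spry4, and 13.7% of all genes. Spry4 was 66.6 ± 52.4 in knockout SpV and 12.9 ± 5.0 in wild-type SpV (SD, n = 3), a fitted log2 difference of 1.25 (adjusted p = 0.318), and the arrays overlapped through knockout array 1. Spry2 was higher on all 3 knockout arrays (826 to 973) than on the wild-type arrays (698 to 751), by 0.29 ± 0.18 (adjusted p = 0.514), a separation that 8.95% of all genes showed. Dusp1 had means of 5573 ± 2731 and 4173 ± 294 and differed by 0.27 ± 0.32 (adjusted p = 0.758). The values were -0.13 for Dusp6, -0.04 for Spry1 and -0.30 for Spred1, none of them called. When knockout SpV array 1 was left out, none of the 5 other genes was called, while 1.9% of all genes were called and 1.18% were called higher. The fitted value of Spry4 was then 1.93 and past the threshold (adjusted p = 0.025), from knockout signals of 114 and 74.9 against wild-type signals of 7.9 to 18.0, too low and too few to be read as a test. Dusp1 then differed by 0.72 ± 0.18 (adjusted p = 0.0598) and Dusp6 by 0.58 ± 0.18 (adjusted p = 0.121), both short of the threshold. RNA quality and cell markers differed between these groups too. The actin ratio was 2.08 to 2.51 in wild-type SpV, 1.39 and 1.52 on knockout SpV arrays 2 and 3, and 8.76 on knockout SpV array 1. With all arrays, endothelial sums were 16962 to 22387 in wild-type and 8259 to 15366 in knockout SpV, and smooth muscle sums 8008 to 8927 and 11069 to 14052. Neutrophil sums were 4581 to 6798 in wild-type SpV and 4916, 20485 and 10301 on the knockout arrays. Their part in the values of the 6 genes was not tested. The ventilated knockout mean of Spry4, 84.0 ± 36.4, lay between that of wild-type SpV and the 155 ± 42.3 of wild-type HVT.

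Under ventilation both phosphatases were lower on every knockout array than on any wild-type array. Dusp1 was 3665 to 5734 in knockout HVT and 7815 to 9724 in wild-type HVT, a log2 difference of -0.89 ± 0.32 (adjusted p = 0.265). Dusp6 was 1071 to 1448 in knockout HVT and 1972 to 2376 in wild-type HVT, a difference of -0.75 ± 0.43 (adjusted p = 0.484). With all 12 arrays neither was called, nor any other member, while 0.729% of all genes were. At an unadjusted p under 0.05 stood 1 of the 6, Dusp1, and 12.9% of all genes. Groups with the knockout wholly lower were found for 12.8% of all genes. Spry4 (-0.81 ± 0.52), Spry2 (-0.27 ± 0.18), Spry1 (-0.17 ± 0.28) and Spred1 (-0.06 ± 0.27) overlapped between the genotypes, with adjusted p from 0.539 to 0.943. All 6 differences were negative, where 52.1% of all genes had a positive one, with a median of -0.51 against 0.02 over all genes. The sign count and the median include Spry4, which passed the filter through its high wild-type HVT signals. The array left out above belongs to neither HVT group, and without it both phosphatases were called at nearly the same size. Dusp1 fell by 0.85 (SE 0.16, adjusted p = 0.0125, range over 24 alternatives 0.0125 to 0.591) and Dusp6 fell by 0.75 (SE 0.16, adjusted p = 0.020, range 0.020 to 0.731). At that setting 5.33% of all genes were called, with 3.45% of all genes called lower in the knockout. The size moved with the covariate for RNA quality: with the actin ratio in the fit to all 12 arrays the differences were -0.51 for Dusp1 (adjusted p = 0.202) and -0.21 for Dusp6 (adjusted p = 0.695). On unscaled signals, where the median of all genes was -0.77, they were -1.60 and -1.67. The actin ratio was 1.53 to 1.99 in wild-type HVT and 2.21 to 3.11 in knockout HVT, and the trimmed mean signal 279 to 439 and 182 to 247, so neither overlapped between the groups. Endothelial marker sums were 12451 to 19685 in wild-type HVT and 7456 to 9057 in knockout HVT, and alveolar type 1 sums 24804 to 36052 and 11768 to 17420. Heart marker sums were 21852 to 33290 and 43993 to 52481. The part of these cell types in the lower phosphatase signals was not tested.

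Averaged over both genotypes, ventilation gave no called member in the main fit to all arrays, when 0.107% of all genes were called. At an unadjusted p under 0.05 stood 2 of the 6, Dusp1 and the filter-dependent Spry4, and 13.3% of all genes. Dusp1 had 0.52 ± 0.23 (adjusted p = 0.342), Spry2 0.25 ± 0.13 (adjusted p = 0.415) and Spry4 a fitted value of 1.52 (adjusted p = 0.103). Without knockout SpV array 1, when 7.11% of all genes were called and 2.51% were called higher, none of the 5 genes other than Spry4 was called. Spry4 was past the threshold there (1.18, adjusted p = 0.0202) and in the actin covariate fit (1.37, with 5.35% of all genes called), with the limits given above. Averaged over breathing, no member was called between genotypes with or without that array, where 3.69% and 6.82% of all genes were. At an unadjusted p under 0.05 stood 0 of the 6 and, with all arrays, 21.3% of all genes. The values with all arrays ran from -0.44 for Dusp6 to 0.22 for Spry4, with adjusted p from 0.446 to 0.973.

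Further probe sets of 3 genes gave a check within the array. Spred1 had 3, of which the other two, whose names end in s_at, can also detect related transcripts, and both were kept. One of them differed between wild-type groups by 0.25 (adjusted p = 0.900 over probe sets) and between knockout groups by 0.37 (adjusted p = 0.569), so none of the 3 was called in either genotype. The second probe set of Spry2 was bright enough on 1 array only, with signals from 9.9 to 102 over all 12, and the second of Spry4 on none. The latter read 3.6, 3.6 and 18.3 in wild-type SpV and 23.4, 23.6 and 20.7 in wild-type HVT. Its HVT arrays were above its SpV arrays as they were for the first probe set, at signals too low to be kept.

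Genes of the same pathways were taken from lists to set the members in context. Among the other MAP kinase phosphatases (6 measured of 9), 5 had a positive wild-type difference with a median of 0.65, beside 44.2% of all genes, and none was called. In knockout lungs 3 of 6 were positive, with a median of 0.20, beside 50.2% of all genes. Dusp16, a phosphatase of JNK and p38, had signals of 1080, 1123 and 1431 in wild-type SpV and 2393, 2085 and 2565 in wild-type HVT, a difference of 0.95 ± 0.21 (adjusted p = 0.174). Its knockout difference was 0.59 ± 0.21 (adjusted p = 0.378). Dusp8, another phosphatase of JNK and p38, differed by 1.15 ± 0.29 in wild-type lungs (adjusted p = 0.270) and by 0.51 in knockout lungs (adjusted p = 0.569). Leaving out knockout SpV array 1, Dusp16 was called in wild-type lungs (0.95, adjusted p = 0.0396). Spred2, the one other Sprouty or Spred gene measured of 3, differed by 0.02 in wild-type and 0.12 in knockout lungs (adjusted p = 0.996 and 0.932).

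Other brakes on receptor tyrosine kinases and Ras (11 measured of 13) were split, with 6 positive in wild-type lungs and 4 in knockout lungs and medians of 0.03 and -0.09. Socs3, the inhibitor of cytokine receptors that signal through STAT3, had signals of 868, 814 and 820 in wild-type SpV and 5993, 2360 and 3764 in wild-type HVT. In knockout lungs it had 1913, 2029 and 4430 in SpV and 689, 1351 and 2075 in HVT. The differences were 2.15 ± 0.42 (adjusted p = 0.159) and -1.04 ± 0.42 (adjusted p = 0.404), neither called. Without knockout SpV array 1 its wild-type rise was called (2.15, adjusted p = 0.0407), as was its interaction (-3.40, adjusted p = 0.0306). Errfi1, named here after its values were seen, had 3921 to 6122 in wild-type SpV and 7225 to 12789 in wild-type HVT. That difference was 0.92 ± 0.43 with all arrays (adjusted p = 0.638). In knockout lungs Errfi1 had 2997, 13310 and 8781 in SpV and 4261, 7188 and 6154 in HVT. Its interaction was called without knockout SpV array 1 (-1.73, adjusted p = 0.0444), beside 0.892% of all genes. In that fit Errfi1 differed by 0.87 in wild-type and -0.86 in knockout ventilation (adjusted p = 0.137 and 0.0712). Between genotypes in SpV it was 1.09 higher in the knockout (adjusted p = 0.0548), and none of these values was called. Rasa1, which encodes a GTPase-activating protein of Ras, differed by -0.21 ± 0.11 averaged over genotypes (adjusted p = 0.445).

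The genes that ERK switches on (13 measured of 15) were mostly higher after ventilation in wild-type lungs and mostly not in knockout lungs. In wild-type lungs 12 of 13 had a positive difference, beside 44.2% of all genes, with a median of 0.9996. Called was 1, beside 0.075% of all genes: Fos, which encodes a subunit of the AP-1 factor. Fos had 903, 978 and 778 in wild-type SpV and 5942, 4868 and 3772 in wild-type HVT and rose by 2.42 ± 0.36 (adjusted p = 0.0301). In knockout lungs 4 of 13 were positive, beside 50.2% of all genes, with a median of -0.51. There Fos had 1682, 5130 and 2113 in SpV and 1245, 1645 and 2591 in HVT (-0.59 ± 0.36, adjusted p = 0.598). Between genotypes in SpV, 10 of 13 were higher in the knockout, beside 48.7% of all genes, with a median of 0.72. None of them was called with all arrays. Without knockout SpV array 1, 11 of 13 were higher there, with a median of 0.88. Then 3 were called higher, Fos among them, beside 1.18% of all genes. The knockout differences and the interaction both include this higher SpV level. All 13 had a negative interaction, with a median of -1.03, and none was called with all arrays. Without knockout SpV array 1, 12 of 13 were negative with a median of -1.57, and 4 were called lower, beside 0.773% of all genes. These included Fos (-3.31, adjusted p = 0.0147) and Egr1 (-3.25, adjusted p = 0.0391), a zinc finger immediate-early factor named here after its values were seen. Epha2, an ephrin receptor whose gene responds to ERK, differed by 0.90 ± 0.26 in wild-type and 0.71 ± 0.26 in knockout lungs (adjusted p = 0.338 and 0.380). The median and the counts describe these lists beside all genes, whose median interaction was 0.02, and are no test of a list.

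Upstream parts of the pathway had list medians near 0. For the core chain from Grb2 to ERK (13 measured of 20), 3 were positive in wild-type and 5 in knockout lungs, with medians of -0.12 and -0.05. None was called, and the smallest p in the averaged comparison belonged to the adaptors Shc1 (0.37 ± 0.10, adjusted p = 0.143) and Gab1 (-0.49 ± 0.15, adjusted p = 0.176). Of the JNK and p38 kinases (10 of 12), 6 and 5 were positive, with medians of 0.10 and 0.02. Mapk11, the beta form of p38, had an averaged difference of -0.82 ± 0.15 (adjusted p = 0.0576), and Mapkapk2, a kinase that p38 activates, one of 0.37 ± 0.11 (adjusted p = 0.165). Among growth factor ligands (10 of 17) the medians were -0.06 and 0.13, with Pdgfb at -0.44 ± 0.17 (adjusted p = 0.264) and the EGF-family ligand Btc at 0.47 ± 0.18 (adjusted p = 0.270). The ligand gene Hbegf, named here after its values were seen, lay far from these medians. Its signals were 681, 764 and 612 in wild-type SpV and 4303, 774 and 2433 in wild-type HVT. In knockout lungs they were 479, 2225 and 2561 in SpV and 1340, 1078.5 and 1497 in HVT. Without knockout SpV array 1 its wild-type difference was 1.54 and its interaction -2.41, neither called (adjusted p = 0.144 and 0.128). Among receptor tyrosine kinases (15 of 15) both medians were -0.04. The fibroblast growth factor receptors Fgfr1 and Fgfr2 differed by 0.55 ± 0.13 and -0.28 ± 0.13 on average (adjusted p = 0.0903 and 0.380). In the fit that omits knockout SpV array 1, the averaged ventilation comparison called 10 of the pathway genes, beside 7.11% of all genes. By list these were 2 of 6 other MAP kinase phosphatases, 1 of 13 genes that ERK switches on and 1 of 12 core genes. The rest were 1 of 10 JNK and p38 kinases, 1 of 10 ligands and 4 of 15 receptors. Of the 11 other brakes on receptors and Ras 0 were called, and Spred2 was not called. Dusp16 (0.67), Dusp8 (0.79), Epha2 (0.64), Shc1 (0.39) and Fgfr1 (0.53) rose, and Mapk11 (-0.91), Pdgfb (-0.58) and the receptor genes Flt1 (-0.85), Tek (-1.07) and Pdgfra (-0.53) fell, with adjusted p from 0.00486 to 0.0486. The receptors Kdr, Flt1 and Tek are also on the endothelial marker list and Pdgfra on the fibroblast list, so these lists share genes.

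**Figure D4:**
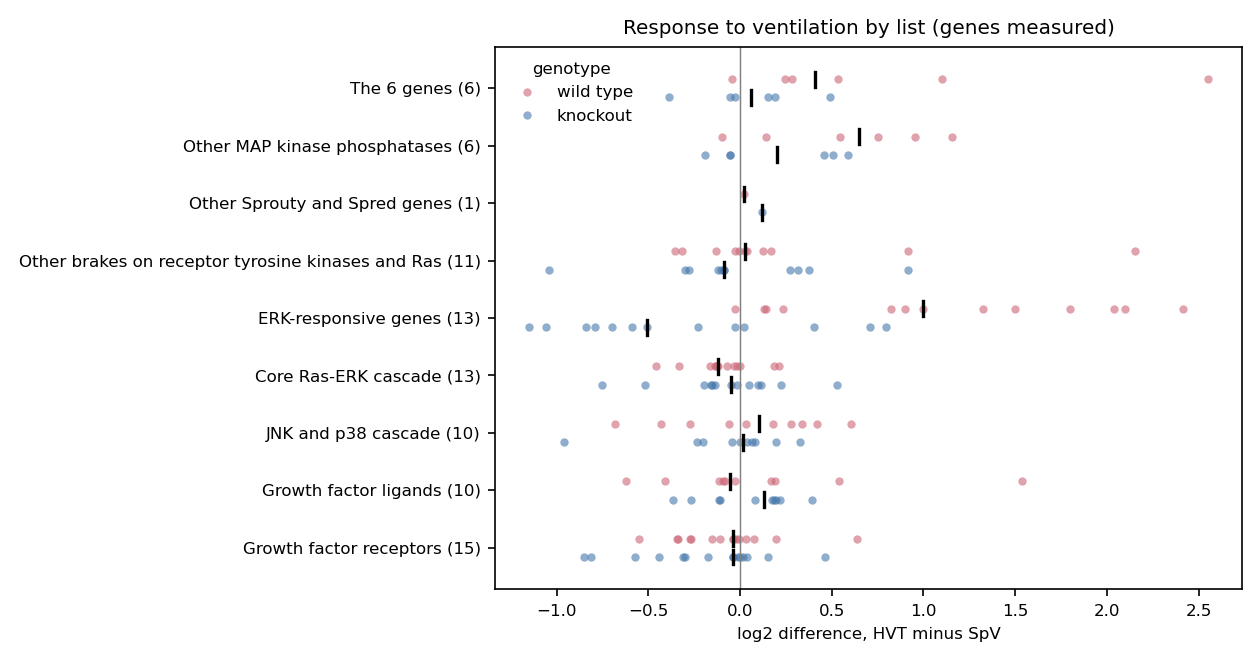
Log2 difference between HVT and SpV (horizontal axis) for each measured gene of the 6 members and the pathway lists (points) and the median (black ticks), in wild-type and knockout lungs, with all 12 arrays. The list of genes that ERK switches on has medians of 0.9996 in wild-type and -0.51 in knockout lungs, while receptors have -0.04 in both.

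Across the 12 arrays the members varied together to different degrees, and these correlations are descriptions over arrays that share groups and normalization. Dusp1 and Spry4 had Pearson's r = 0.87, Dusp1 and Spry1 0.81, and Dusp6 and Spred1 0.77. Spry2 and Spred1 had -0.07, the lowest of the 15 pairs. They were 0.93, 0.91 and 0.87 for the same 3 pairs when each array was taken as its deviation from its group mean, where knockout SpV array 1 was low for 5 of the 6 genes. Among 9327 other genes, those with the highest r to Dusp1 were Ifrd1 (0.93), the zinc finger factor gene Klf6 (0.90) and the kinase gene Plk3 (0.90). Spry4 was followed most closely by Noct (0.95), which encodes the circadian phosphatase nocturnin, and by Rela (0.94) and Pde12 (0.93). Noct itself rose in wild-type HVT by 2.60 ± 0.39 (adjusted p = 0.0301). Spry2 had its nearest patterns in Has1 (0.92), a hyaluronan synthase gene, the actin gene Actg1 (0.90) and the cytokine gene Il6 (0.86). The nearest to Dusp6 were Atp6v0e (0.96), Cd164 (0.95) and Tgfbr2 (0.94), to Spry1 Gcnt2 (0.93), Cacul1 (0.90) and Cnbp (0.89), and to Spred1 Cog6 (0.95), Crot (0.95) and Nfatc1 (0.94). All these r include the low knockout SpV array 1, and its part in them was not tested.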

How the data were processed

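Probe set signals, in units of intensity, were deposited by the authors for 12 arrays; the submitters' processing notes name the Affymetrix GeneChip Operating Software, version 1.4. Per the labels, arrays were normalized to an average of 500, but the trimmed means of the deposited intensity values run from 73.9 to 470. Each array was therefore scaled to a mean of 500, trimmed by 2% at each end, and all were quantile normalized. The 64 AFFX controls were left out of the tests. A probe set was kept at a signal of 100 on at least 3 arrays, and 16 was added before log2, which understates changes of weak genes. Of the probe sets, 20380 name 1 gene, 691 several and 1555 none; 20351 matched RefSeq (GRCm38.p6) by Entrez identifier. The brightest probe set per gene left 9333 genes from 14554.

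Group means were fitted with limma 3.58.1 in R 4.3.3 (eBayes with trend, 8 residual and 4.44 prior degrees of freedom, 7 contrasts, two-sided). A gene was called at a Benjamini-Hochberg adjusted p under 0.05 over all genes. An exact permutation of 3 against 3 cannot go below 0.1. Nothing says that the replicates came from different mice, so the spread behind the p-values may be technical. The script was tested on simulated data. The highest share of identical values between any 2 arrays was 0.383%, so all were counted as separate.

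The members and gene lists were chosen with earlier results of these data known. Genes were named by a rule: Nfe2l2, the members, up to 4 called genes of each list plus the 2 with the smallest p in the averaged ventilation contrast, and for each member the 3 genes of highest r over the arrays. Alternatives to scaling, filter, pseudocount, probe set choice and design were run, and each array was left out in turn. Promoter windows are RefSeq's.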

Additional observations from a re-analysis of the deposited data

How the results depend on the processing

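No member was called in the main fit to all 12 arrays, and the count of called members moved under 3 settings. Without scaling it was 1 in the wild-type ventilation comparison (Spry4, with 0.0107% of all genes called), and with the 3′ to 5′ actin ratio as a covariate it was 2 there (Dusp1 and Spry4, 0.761% of all genes) and 1 in the averaged ventilation comparison (Spry4, 5.35% of all genes). Leaving out each array in turn gave 0 to 2 called members for wild-type ventilation, 0 to 1 for knockout ventilation, 0 to 1 for genotype in SpV, 0 to 2 for genotype in HVT, 0 to 3 for the interaction, 0 to 1 for averaged ventilation and 0 for averaged genotype. Every count above 0 among these came from leaving out knockout SpV array 1. The counts include Spry4, whose fitted values are descriptions only, and which alone made up the count for genotype in SpV and for averaged ventilation. Replicate numbers were not used as pairs in the main fit. Same-numbered arrays had correlations of deviations from -0.17 to 0.39 (median 0.018), and other-numbered arrays from -0.40 to 0.30 (median -0.016). Of 12 arrays 6 correlated best with their own number. These overlapping ranges cannot decide whether the numbers pair samples. A replicate block gave 0 called members in all 7 comparisons.

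Directions turned for values near 0 and for some larger ones. Among the larger were 0.49 for Spry4 in knockout ventilation, and 0.29 for Spry2 and 0.27 for Dusp1 for genotype in SpV. Without scaling, the median of all genes was -0.28 in knockout ventilation, -0.47 for genotype in SpV, -0.61 for averaged genotype, -0.31 in the interaction and -0.13 in averaged ventilation. There the knockout ventilation values were -0.19 for Spry1, -0.074 for Spry4 and -0.20 for Spred1. Genotype in SpV gave -0.27 for Dusp1 and -0.22 for Spry2, averaged genotype -0.69 for Spry2 and -0.066 for Spry4, and Spred1 had 0.017 in wild-type ventilation, -0.22 in the interaction and -0.092 in averaged ventilation. Relative to those medians, 8 of these 10 values had the sign of the scaled fit, and the exceptions were Spred1 in wild-type ventilation (0.0073) and Spry2 in averaged genotype (-0.084). With the actin covariate, Dusp6 had -0.11 in wild-type ventilation and 0.025 for genotype in SpV. Spry1 had 0.044 for genotype in SpV, 0.14 in HVT, 0.092 in the interaction and 0.090 averaged, and Spred1 had 0.22 for genotype in HVT, -0.0067 for averaged ventilation and 0.0007 for averaged genotype. Scaling alone and equal medians gave 0.094 and 0.072 for Dusp1 in knockout ventilation and -0.026 and -0.070 for Spry2 in averaged genotype. The mean of probe sets gave 0.045 for Spred1 in wild-type ventilation. The cause of the turns, with or without scaling, was not tested.

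Ranges over the arrays left out crossed 0 in knockout ventilation for Dusp1 (-0.51 to 0.28), Dusp6 (-1.09 to 0.056), Spry1 (-0.25 to 0.47), Spry2 (-0.20 to 0.071), Spry4 (-0.19 to 0.96) and Spred1 (-0.18 to 0.40). For genotype in SpV they crossed it for Dusp1 (-0.057 to 0.72), Dusp6 (-0.57 to 0.58), Spry1 (-0.36 to 0.35) and Spred1 (-0.51 to 0.075). For averaged genotype they did so for Spry1 (-0.27 to 0.090), Spry2 (-0.073 to 0.073), Spry4 (-0.011 to 0.55) and Spred1 (-0.28 to 0.0067). The others were Spry1 (-0.53 to 0.19) and Spred1 (-0.14 to 0.45) in the interaction, Dusp6 (-0.42 to 0.15) and Spred1 (-0.11 to 0.18) in averaged ventilation, and Spred1 in wild-type ventilation (-0.21 to 0.071). A filter at 200 left out Spry4, whose signals are the weakest. Of 504 values with an array left out, 465 kept their direction and side of the threshold, and of 497 under other settings 469 did. The number of arrays limits the precision.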
